A study of Homo sapiens with 6 samples.

Results

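MORF4L1, its paralog MORF4L2 and 8 of their partners in the NuA4 histone acetyltransferase complex (KAT5, MRGBP, ING3, EP400, TRRAP, EPC1, EPC2 and MEAF6) were described in RNA-seq of A549 cells, an established line of human lung adenocarcinoma. These 10 genes were found by symbol among the 60624 Ensembl genes of the deposited table, and all 10 averaged 1 TPM or more over the libraries, as did 14778 genes in all, which are the genes tested here. They were chosen by name with the differences between siCEP20 and siCTR in this table already known, so their values in that contrast are given as a description, with no test. All 6 samples were A549 cells grown with 10% fetal bovine serum and transfected for 3 days. The 3 siCTR samples received a control small interfering RNA (siRNA), and the 3 siCEP20 samples received siRNA against CEP20, a centrosomal protein. Which CEP20 siRNA was used for sequencing is not given in the sources used here. The study's methods speak in general of 3 independent experiments, without naming the RNA-seq samples, and the labels do not give separate cultures, so p-values measure the spread between these samples, which may be technical. The sample labels name F-12K medium and, in 1 field, a plasmid transfection, whereas the study's methods name DMEM and a lipid reagent for siRNA.

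NuA4, also called the TIP60 complex, transfers acetyl groups to histones H4 and H2A and can exchange H2A for the variant H2A.Z. KAT5 is its catalytic subunit, EPC1 or EPC2 holds KAT5 together with ING3 and MEAF6 in a catalytic module, and EP400 and TRRAP are very large proteins, one a chromatin remodeller and the other a surface for transcription activators. MORF4L1 (also MRG15) has a chromodomain that reads methylated lysine 36 of histone H3 and an MRG domain that binds partners. It sits in NuA4 with MRGBP, and also in SIN3 histone deacetylase complexes, with the methyltransferase ASH1L and with the DNA repair protein PALB2. MORF4L2 has the MRG domain but no chromodomain.

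The MORF4L1 gene (ENSG00000185787) lies on chromosome 15 at 78810487 to 78898139 of hg38, on the plus strand, and its canonical transcript has 12 exons and 2172 bases, of which 969 are coding. Human chromosomes also carry intronless copies of its mRNA, and a read that falls in a stretch shared with a copy cannot be assigned by sequence. The first 30 coding bases of MORF4L1, in exon 1 at chr15:78873018-78873047 (plus strand), are shown to let the closeness of these copies be seen. Beside them stand the aligned bases of MORF4L1P1, a processed pseudogene on chromosome 1 (chr1:220253570-220253599, plus strand), and of MORF4 on chromosome 4 (chr4:173616877-173616906, minus strand), from GENCODE release 44 transcripts, 5′ to 3′. Capitals mark the positions at which the 3 sequences are not all alike.
MORF4L1: atggCgcCgaagcaggacccgaagcctaaa
MORF4L1P1: atggCgcGgaagcaggacccgaagcctaaa
MORF4: atggTgcTgaagcaggacccgaagcctaaa
In this window MORF4L1P1 differed from MORF4L1 at 1 position and MORF4 at 2. The window was taken by a rule, as the first with the most differences from MORF4L1P1 among coding stretches aligned without gaps. Over its whole length MORF4L1P1 was identical to the MORF4L1 mRNA in 960 of 967 aligned positions (99.3%), with 7 substitutions and 0 gaps. MORF4 was identical in 937 of 973 (96.3%), with 33 substitutions and 3 gaps. The coding sequences of the paralogs MORF4L1 and MORF4L2 were identical in 707 of 980 aligned positions (72.1%).

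TPM, the transcript abundance that the authors computed for each gene, accounts for transcript length and adds up to a fixed total per library. Levels can therefore be compared between genes, but the sequencing depth of each library is unknown. CEP20, the targeted gene, was at 29.2, 30.5 and 35.1 TPM in siCTR and at 16.2, 15.3 and 17.3 TPM in siCEP20. It fell by 0.92 on the log2(TPM + 1) scale (standard error 0.0915, limma adjusted p = 0.000205), and the exact permutation test of its 6 values gave p = 0.1, the smallest possible with 3 against 3. Over all tested genes the median log2 fold change was 0.13, and a fold change relative to this median is also given where named so. Of the A549 markers fixed as epithelial, all 5 were detected and all 5 rose, among them KRT8 from 1587 ± 75.1 to 2292 ± 113 TPM (SD, n = 3, limma adjusted p = 0.000243). Of 4 fibroblast markers COL1A2 and DCN were at 0 in every library and PDGFRB did not exceed 0.256 TPM, while COL1A1 rose from between 5.27 and 5.90 to between 17.5 and 19.6 TPM (limma adjusted p = 3.12e-05), which makes the summed level 5.34 to 6.02 in siCTR and 17.5 to 19.8 in siCEP20. The 3 endothelial markers did not exceed 0.0982 TPM, and of 4 leukocyte markers CD14 alone was above 0.0183 TPM, with a summed level of 7.34 to 10.9 in siCTR and 7.20 to 8.84 in siCEP20. The part of these markers in the results on NuA4 was not tested.

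MORF4L1 was at 417, 457 and 453 TPM in the siCTR libraries and at 182, 190 and 191 TPM in the siCEP20 libraries. The groups lay far apart relative to their own spread, with means of 443 ± 22.2 and 188 ± 5.05 TPM (SD, n = 3), so siCEP20 held 42.4% of the siCTR level. Its log2 fold change was -1.23 with a standard error of 0.0551, and -1.36 relative to the median of all genes. This was the lowest fold change of the 10 genes and had the rank 80 of 14778 when all tested genes were ordered from the lowest fold change. In RNA from whole cultures, fewer cells of a kind and less RNA per cell cannot be told apart.

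MORF4L2, the paralog without a chromodomain, was at 576, 569 and 606 TPM in siCTR and at 480, 561 and 522 TPM in siCEP20. Every siCEP20 library was below every siCTR library, but the gap between the nearest libraries was small beside the SD of 40.5 TPM within siCEP20. The means were 584 ± 19.7 and 521 ± 40.5 TPM (SD, n = 3) and the log2 fold change was -0.17 (standard error 0.0644). The paralogs therefore stood nearer each other in siCTR than in siCEP20. The ratio of MORF4L1 to MORF4L2 TPM within a library, which no scaling of whole libraries can change, was 0.724, 0.804 and 0.748 in siCTR and 0.379, 0.339 and 0.367 in siCEP20. The siCEP20 mean of this ratio was 47.7% of the siCTR mean, and its groups did not overlap. Added together, the paralogs gave 993, 1026 and 1059 TPM in siCTR and 662, 751 and 713 TPM in siCEP20.

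MRGBP, the small subunit that joins MORF4L1 or MORF4L2 to NuA4, was at 29.5, 30.4 and 33.7 TPM in siCTR and at 22.5, 24.8 and 26.0 TPM in siCEP20. All siCEP20 values were lower, at 78.3% of the siCTR mean, with a log2 fold change of -0.34 (standard error 0.0843). MORF4L1, MORF4L2 and MRGBP each had all siCEP20 values below all siCTR values, as did 17.0% of all tested genes, and the nearest libraries of MORF4L2 were 569 and 561 TPM. The fold change of each kept its negative sign under each scaling described further on. MRGBP shared 11.7% of its windows of 150 bases, the length of a read, with the antisense gene OGFR-AS1, whose mean was 0.255 TPM.

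**Figure D1:**
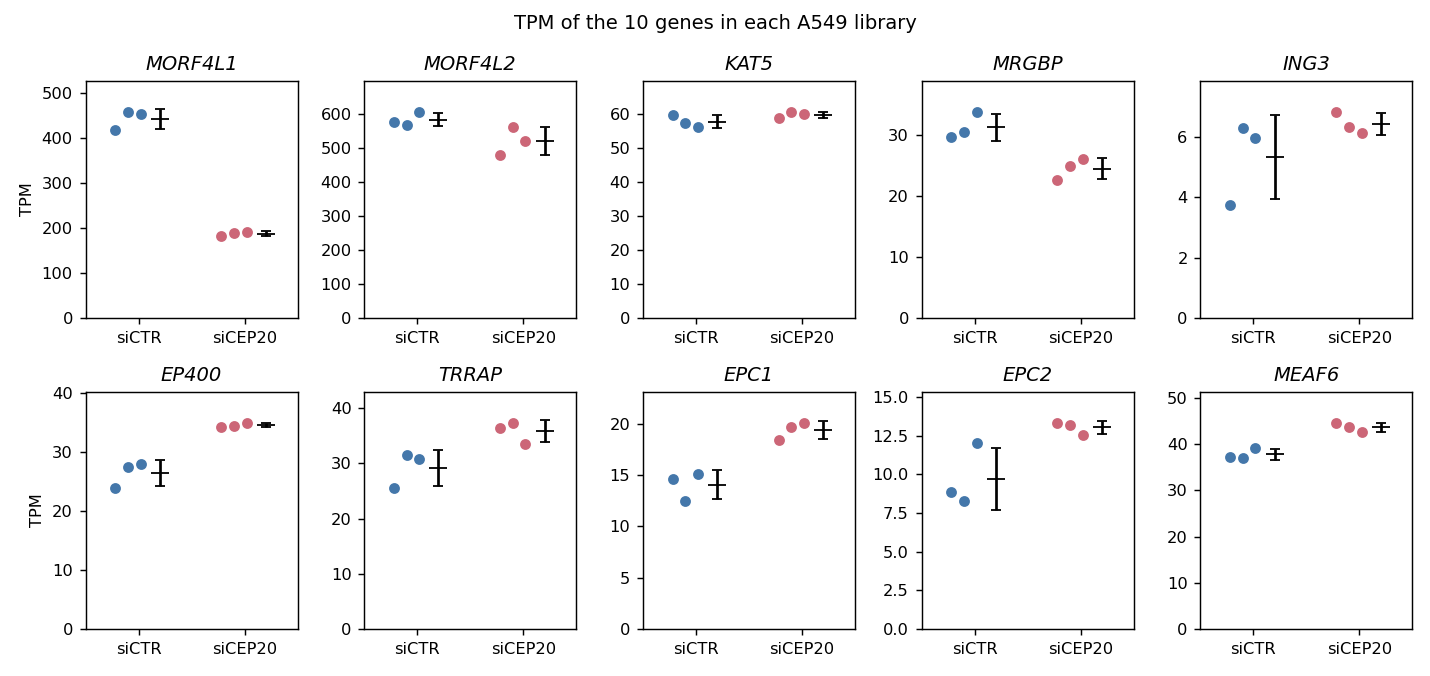
TPM (vertical axes, each from 0) of the 10 genes in 3 siCTR (blue) and 3 siCEP20 (red) libraries, with 1 point per library and the mean and SD in black. MORF4L1, MORF4L2 and MRGBP lie lower in siCEP20 in all libraries, KAT5 and ING3 overlap between groups, and the other 5 genes lie higher in siCEP20.

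The copies of MORF4L1 had values of their own in the table. MORF4L1P1 was at 170, 187 and 181 TPM in siCTR and at 98.6, 101 and 104 TPM in siCEP20. Of 2023 windows of 150 bases in the canonical MORF4L1 transcript, 184 (9.10%) were also found in MORF4L1P1 without a mismatch. Windows that differ by a few bases were not counted, and the share is of MORF4L1, not of the shorter MORF4L1P1. How reads in shared or nearly shared stretches were divided between the rows is not stated in the sources used here. MORF4L1P1 fell by 0.82 on the log2(TPM + 1) scale (standard error 0.0571). This is given as a description with no test, since part of its reads may come from MORF4L1. Its level was 0.405 ± 0.00548 of that of MORF4L1 in siCTR and 0.539 ± 0.00626 in siCEP20 (SD, n = 3). MORF4 was at 1.52, 1.38 and 1.36 TPM in siCTR and at 0.4745, 0.107 and 0.583 TPM in siCEP20. MORF4, singled out after its values were seen, had a mean below 1 TPM and was not tested. With MORF4L1P1 added, the MORF4L1 level was 587, 644 and 634 TPM in siCTR and 281, 291 and 295 TPM in siCEP20, which is 46.5% of the siCTR mean and a log2 fold change of -1.10. The ratio to MORF4L2 with the pseudogene rows of both added was 1.02 to 1.13 in siCTR and 0.519 to 0.585 in siCEP20, and siCEP20 then held 52.2% of the siCTR ratio. MORF4L2 and MEAF6 shared 0 windows with other genes, and their pseudogenes MORF4L2P1 and MEAF6P1 were at 0 in all 6 libraries. ADAMTS7, annotated across MORF4L1 on the opposite strand, had a mean of 5.00 TPM.

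**Figure D2:**
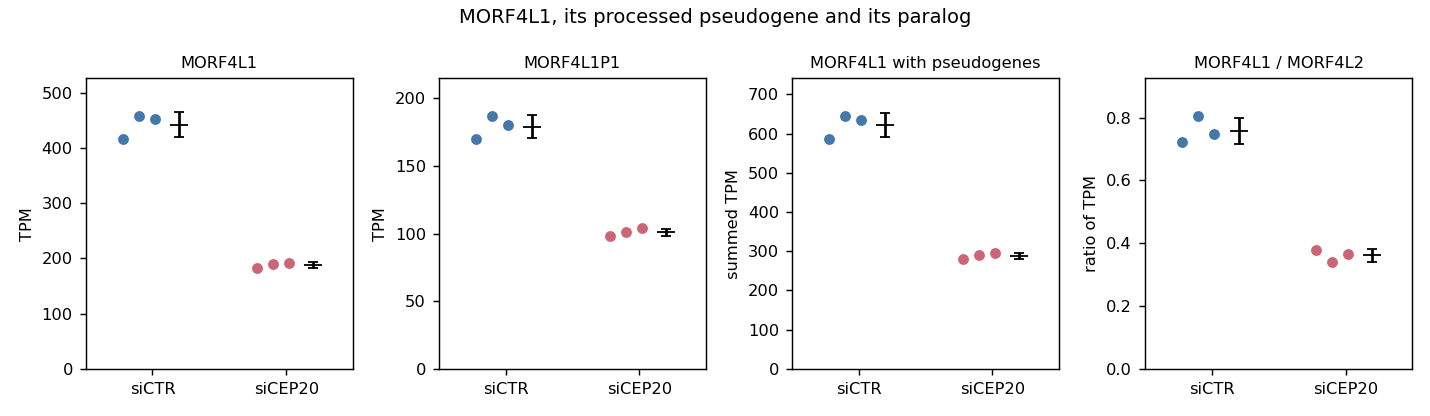
TPM of MORF4L1, of its processed pseudogene MORF4L1P1 and of MORF4L1 with the pseudogene row added, and the ratio of MORF4L1 to MORF4L2 TPM (vertical axes from 0), with 1 point per library and the mean and SD in black. In all 4 panels the 3 siCEP20 libraries lie below the 3 siCTR libraries, at 42.4% of the siCTR mean for MORF4L1 and 56.5% for MORF4L1P1.

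KAT5, the acetyltransferase itself, was at 60.0, 57.6 and 56.2 TPM in siCTR and at 58.9, 60.7 and 60.0 TPM in siCEP20. Its groups overlapped, with means of 57.9 ± 1.91 and 59.9 ± 0.905 TPM (SD, n = 3) and a log2 fold change of 0.05 (standard error 0.058). KAT5 shared 27.1% of its windows with RNASEH2C, a subunit of the RNase H2 enzyme on the opposite strand. The study's methods describe libraries that keep strand, by removal of a dUTP-labelled second strand, and HISAT2 run at its defaults. Whether strand was used in quantification is not stated in the sources used here. RNASEH2C fell from 27.9 ± 1.49 to 20.7 ± 0.514 TPM (SD, n = 3, limma adjusted p = 0.00272), and without strand its reads could not be told apart from those of KAT5. Set against KAT5 in the same library, MORF4L1 was at 6.95 to 8.07 times its TPM in siCTR and at 3.09 to 3.19 times in siCEP20.

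The scaffold paralogs EPC1 and EPC2 were both higher in siCEP20. EPC1 was at 14.6, 12.4 and 15.1 TPM in siCTR and at 18.4, 19.7 and 20.1 TPM in siCEP20, with a log2 fold change of 0.44 (standard error 0.0935). EPC2 was at 8.86, 8.27 and 12.01 TPM in siCTR and at 13.3, 13.2 and 12.5 TPM in siCEP20, with a log2 fold change of 0.40 (standard error 0.132). The siCTR replicate 3 value of EPC2 came close to the lowest siCEP20 value. Without that library its log2 fold change was 0.55, and without siCTR replicate 2 it was 0.31. The ratio of EPC1 to EPC2 TPM ran from 1.26 to 1.65 in siCTR and from 1.38 to 1.602 in siCEP20, so it overlapped, unlike the ratio of the MORF4L paralogs. EPC1 shared 6.94% of its windows with antisense genes whose means did not exceed 0.0425 TPM, and EPC2 shared 0.

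ING3, which reads trimethylated lysine 4 of histone H3, had the lowest level of the 10 genes, with 3.74, 6.30 and 5.95 TPM in siCTR and 6.82, 6.31 and 6.12 TPM in siCEP20. The low value of siCTR replicate 1 set most of its difference. The log2 fold change was 0.25 (standard error 0.17) with all libraries and 0.06 without that one, and relative to the median of all genes it then turned from 0.12 to -0.05. MEAF6, a small subunit shared with other MYST acetyltransferase complexes, was at 37.1, 37.0 and 39.2 TPM in siCTR and at 44.7, 43.7 and 42.6 TPM in siCEP20. Its groups did not overlap and its log2 fold change was 0.20 (standard error 0.0623), but it became -0.01 after correction for transcript length and GC content.

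EP400, the remodelling ATPase, was at 23.9, 27.5 and 28.0 TPM in siCTR and at 34.3, 34.3 and 34.9 TPM in siCEP20. The siCEP20 libraries were tightly grouped above all siCTR libraries, at 130% of their mean, with a log2 fold change of 0.37 (standard error 0.0786). EP400 shared 4.94% of its windows with other genes, 3.27% with the pseudogene EP400P1, which was at 8.23, 7.96 and 9.22 TPM in siCTR and at 12.1, 14.2 and 12.7 TPM in siCEP20. EP400P1 rose by 0.56 on the log2 scale (standard error 0.0988), also given with no test, and EP400 with its pseudogene rows added had a log2 fold change of 0.44. TRRAP, a pseudokinase that the SAGA acetyltransferase complex also uses, was at 25.4, 31.4 and 30.8 TPM in siCTR and at 36.4, 37.4 and 33.6 TPM in siCEP20. Its groups did not overlap, with a log2 fold change of 0.29 (standard error 0.0946), which was 0.20 without siCTR replicate 1 and 0.03 after the correction for length and GC content. SMURF1, annotated across part of TRRAP, had a mean of 38.0 TPM, and TRRAP shared 0.591% of its windows with other genes.

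In siCTR the order of the 10 genes by mean TPM was MORF4L2, MORF4L1, KAT5, MEAF6, MRGBP, TRRAP, EP400, EPC1, EPC2 and ING3. The ranges of MRGBP and TRRAP overlapped there, as did those of TRRAP and EP400, and the other neighbours were separate. In siCEP20 MRGBP stood after TRRAP and EP400, whose ranges overlapped each other, and the order was otherwise as in siCTR. Together the 10 genes summed to 1196, 1237 and 1280 TPM in siCTR and to 897, 991 and 949 TPM in siCEP20. MORF4L1 made up 34.9% to 37.0% of this sum in siCTR and 19.2% to 20.3% in siCEP20, and MORF4L2 made up 46.0% to 48.2% and 53.5% to 56.6%. The 8 partners without the paralogs summed to 203, 211 and 221 TPM in siCTR and to 235, 240 and 236 TPM in siCEP20, so the lower total came from the paralogs.

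A gene was called at a limma adjusted p under 0.05 with a fold change over 1.5 or under 0.67, thresholds taken from the study's methods. By this rule 11.2% of the 14778 tested genes were called higher and 4.61% lower. These shares are 1659 and 682 genes, and the split moved to 875 and 1121 after median-of-ratios scaling, 923 and 1016 after quantile normalization and 894 and 881 after the correction for length and GC content. Without the fold threshold 30.2% of all genes were higher and 13.2% lower. No adjusted p is given for any of the 10 genes, and it enters only their counts by setting further on, from which nothing is read. By fold change alone MORF4L1 was under 0.67, and none of the 10 was over 1.5. All siCEP20 values lay above all siCTR values for 38.4% of tested genes and below them for 17.0%, against 5 and 3 of the 10. The median log2 fold change of the 10 was 0.23, beside 0.13 for all tested genes, and nothing is read from these counts since the genes were chosen with this contrast known.

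The remaining 9 subunits of NuA4 gave a comparison in which each gene was tested. None was called (0 of 9 in either direction by limma with the fold threshold), and at an adjusted p under 0.05 alone 3 rose, 1 fell and 5 did not pass. Beside these, 11.2% of all tested genes were called higher and 4.61% lower, and at the adjusted p alone 30.2% rose and 13.2% fell. At an unadjusted p under 0.05 in limma there were 4 higher and 2 lower. The share of all tested genes at that threshold was not computed, so nothing is read from these counts. ACTB, the actin of the cytoskeleton and of nuclear complexes, rose from 3345, 4228 and 4180 TPM to 5371, 6177 and 5442 TPM, with a log2 fold change of 0.54 (standard error 0.0966, limma adjusted p = 0.00296). YEATS4, an acetyl-lysine reader, rose from 32.3 ± 5.38 to 44.2 ± 4.21 TPM (SD, n = 3, limma adjusted p = 0.018), and VPS72, an H2A.Z chaperone, from 83.1 ± 3.71 to 101 ± 5.14 TPM (limma adjusted p = 0.00832). After median-of-ratios scaling neither of these passed the threshold of 0.05, with log2 fold changes of 0.30 and 0.13. YEATS4 also did not pass the adjusted p without siCTR replicate 1 (log2 fold change 0.40), without siCTR replicate 2 (0.37), without siCEP20 replicate 2 (0.39) and, at its fold change of 0.45, with no filter on TPM. ACTL6A, the actin-like BAF53a, was at 63.1, 73.5 and 67.2 TPM in siCTR and fell to 52.3, 52.3 and 50.5 TPM in siCEP20, with a log2 fold change of -0.38 (standard error 0.0706, limma adjusted p = 0.00328). The AAA+ ATPases RUVBL1 and RUVBL2 had log2 fold changes of -0.17 and 0.05 (limma adjusted p = 0.0686 and 0.479), the bromodomain protein BRD8 0.16 (0.0715), the methyl-lysine reader MBTD1 0.24 (0.173) and DMAP1 0.04 (0.633). The median over the 9 was 0.16.

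**Figure D3:**
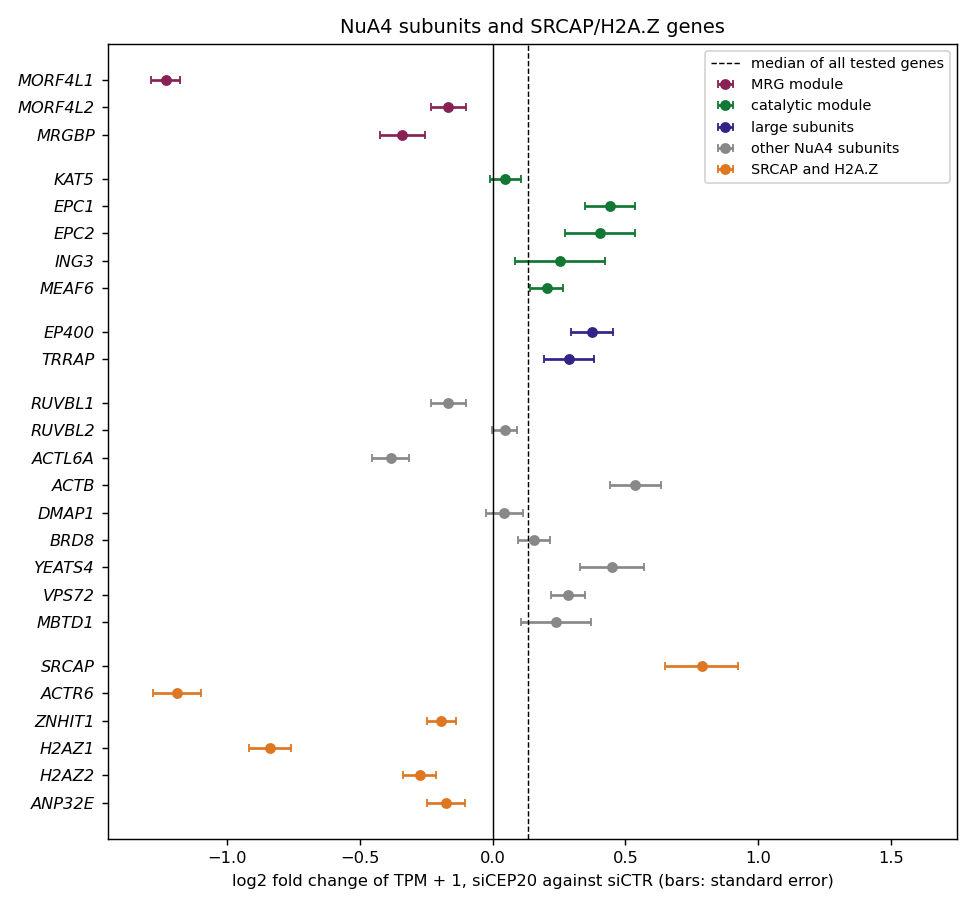
Log2 fold change of TPM + 1, siCEP20 against siCTR (horizontal axis), of the 10 genes by module, the other 9 NuA4 subunits, and the SRCAP and H2A.Z genes, with standard errors as bars. The dashed line is the median of all tested genes (0.13). MORF4L1 at -1.23 and ACTR6 at -1.19 lie farthest to the left.

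NuA4 shares subunits with the SRCAP complex, which places H2A.Z in chromatin. Of 6 genes listed for that complex and for H2A.Z, 1 was called higher and 2 lower, and at the adjusted p alone 1 rose and 4 fell, with a median log2 fold change of -0.23 beside 0.13 for all genes. Over all tested genes 11.2% were called higher and 4.61% lower, and at the adjusted p alone 30.2% rose and 13.2% fell. ACTR6, an actin-related subunit, fell from 20.9, 25.0 and 22.1 TPM to 9.43, 9.24 and 9.42 TPM, with a log2 fold change of -1.19 (standard error 0.0888, limma adjusted p = 6.78e-05). H2AZ1, which encodes the main H2A.Z protein, fell from 366, 341 and 318 TPM to 188, 209 and 176 TPM, with a log2 fold change of -0.84 (standard error 0.078, limma adjusted p = 0.000153). H2AZ2 fell from 90.9 ± 3.36 to 75.03 ± 3.41 TPM (SD, n = 3, limma adjusted p = 0.00803) and ZNHIT1 from 157 ± 7.14 to 137 ± 1.92 TPM (limma adjusted p = 0.0216). ANP32E, which removes H2A.Z, had a log2 fold change of -0.18 (limma adjusted p = 0.0803). SRCAP was listed at 26.75 ± 5.96 TPM in siCTR and 46.2 ± 2.20 TPM in siCEP20 (SD, n = 3, limma adjusted p = 0.00266), but 83.7% of its windows were shared with ENSG00000282034 on the same strand, which went the other way, from 20.03 ± 3.00 to 10.7 ± 0.578 TPM. Summed, these 2 rows gave 40.6, 48.6 and 51.2 TPM in siCTR and 55.6, 60.1 and 55.1 TPM in siCEP20, so the call on SRCAP is uncertain. SRCAP was not called after the length and GC correction (0.52), while ACTR6 and H2AZ1 were called under all 3 rescalings.

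MORF4L1 has partners outside NuA4. Of 20 genes of SIN3 complexes and other proteins known to bind MORF4L1, 3 were called higher and 0 lower, at the adjusted p alone 8 rose, 0 fell and 12 did not pass, and the median log2 fold change was 0.24. At an unadjusted p under 0.05 limma gave 10 higher and 1 lower. The share of all tested genes at that threshold was not computed. Nothing is therefore read from these counts, or from those given below for methyltransferases. Over all tested genes 11.2% were called higher and 4.61% lower, and at the adjusted p alone 30.2% were higher and 13.2% lower. PHF12, which joins MORF4L1 in a SIN3B complex, rose from 22.0, 23.0 and 25.4 TPM to 42.1, 46.2 and 47.6 TPM, with a log2 fold change of 0.92 (standard error 0.0814, limma adjusted p = 0.000123). ARID4A rose by 0.75 and EMSY by 0.61 on the same scale (limma adjusted p = 0.00213 and 0.00943). PHF12 alone of the list was called after quantile normalization and after the length and GC correction, and PHF12 and ARID4A after median-of-ratios scaling, with EMSY then at 0.44, 0.36 and 0.47. EMSY was also not called without siCTR replicate 1 (0.53), siCTR replicate 2 (0.57), siCEP20 replicate 2 (0.58) or siCEP20 replicate 3 (0.54), and ARID4A was left out by a filter of a mean of 5 TPM. SAP130, of the SIN3A complex, rose from 17.2 ± 1.41 to 24.5 ± 1.88 TPM (SD, n = 3, limma adjusted p = 0.00361), below the fold threshold. Of 5 methyltransferases of lysine 36 of histone H3, the mark that MORF4L1 reads, 2 were called higher and 0 lower. At the adjusted p alone 3 rose, 0 fell and 2 did not pass, with 3 higher and 0 lower at an unadjusted p under 0.05 in limma. Their median log2 fold change was 0.55, beside 0.13 for all tested genes. ASH1L, whose activity MORF4L1 stimulates, rose from 8.17, 10.4 and 9.18 TPM to 14.6, 16.1 and 13.1 TPM (log2 fold change 0.61, limma adjusted p = 0.00371). NSD3 rose from 23.8 ± 2.42 to 38.2 ± 0.971 TPM and SETD2 from 12.2 ± 1.48 to 18.3 ± 0.523 TPM (SD, n = 3, limma adjusted p = 0.000621 and 0.00283). The 2 calls became 0 after median-of-ratios scaling, quantile normalization and the length and GC correction, with log2 fold changes of 0.51, 0.53 and 0.39 for NSD3 and 0.46, 0.44 and 0.33 for ASH1L, and ASH1L was not called without siCTR replicate 1 (0.53) or without siCEP20 replicate 2 (0.54).

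The 5 genes with a pattern most like that of MORF4L1 were sought among 8474 protein-coding genes averaging 10 TPM or more, by the root mean square difference of centred log2(TPM + 1) over the 6 libraries. ACTR6 was the nearest, at 0.0585, on a scale on which the profile of MORF4L1 itself had a root mean square of 0.617. EEF1AKMT4 (0.0705), ENSG00000269242 (0.0738), NDUFC2 (0.0834) and TOR1B (0.0853) followed, and the same 5 genes were found after median-of-ratios scaling. All 5 had lower means in siCEP20, as their likeness to MORF4L1 requires, with TOR1B, an endoplasmic reticulum ATPase, for example at 39.4 ± 2.45 TPM in siCTR and 15.8 ± 2.06 TPM in siCEP20 (SD, n = 3). Shared windows touched EEF1AKMT4 (40.4%), ENSG00000269242 (80.6%) and NDUFC2 (13.9%), whose annotations overlap those of other genes on the same strand. These were EEF1AKMT4-ECE2, with a mean of 0 TPM, MAN2B1, with 53.2 TPM, and NDUFC2-KCTD14, with 108.8 TPM.

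Fold changes in this table moved with transcript length. When tested genes were divided into 5 bins by the length of their canonical transcript, the median log2 fold change was -0.05 in the shortest bin and 0.07, 0.14, 0.19 and 0.26 in the following bins. MORF4L1, MORF4L2 and KAT5 fell in the second bin (1302 to 2269 bases), in which 10% of genes lay under -0.43, and MORF4L1 was well below that value. ING3, EPC1, EPC2 and MEAF6 fell in the fourth, where 90% of genes lay under 0.64, and EP400 and TRRAP, with transcripts of 12289 and 12675 bases, in the longest, where 90% lay under 0.69. The 6 genes of these bins were thus within the common range for their length, at 0.20 to 0.44. MRGBP, in the third bin, was at -0.34, under the value of -0.31 below which 10% of its bin lay.

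**Figure D4:**
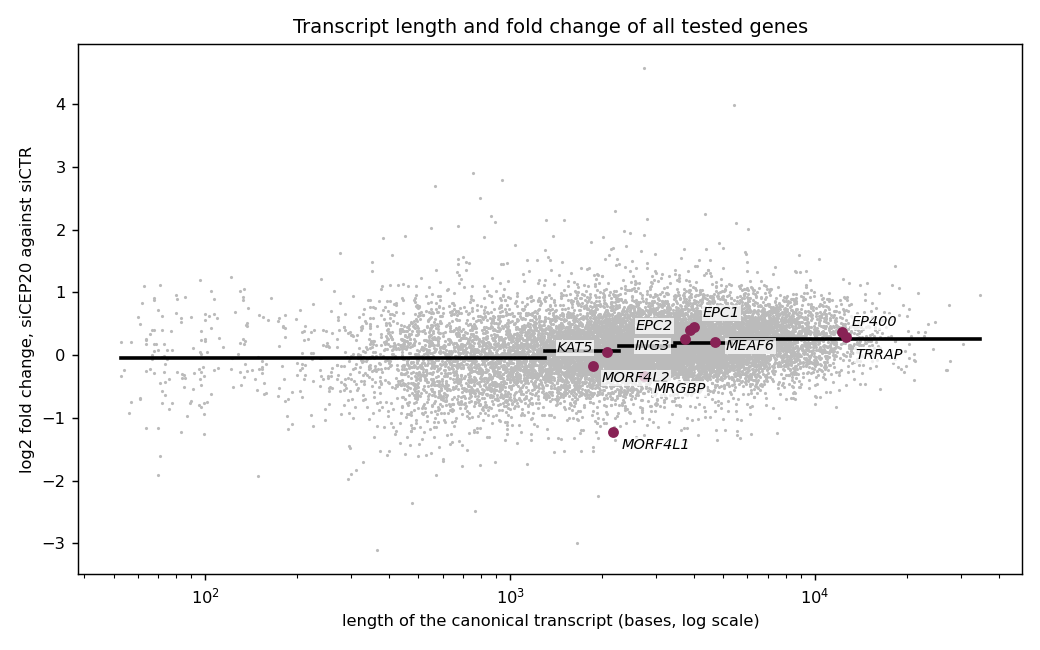
Length of the canonical transcript in bases (horizontal axis, log scale) and log2 fold change, siCEP20 against siCTR (vertical axis), of all tested genes with a length (grey) and the 10 genes (purple, labelled). Black lines are the medians of 5 length bins, which run from -0.05 to 0.26. MORF4L1 at -1.23 lies far below the median of its bin (0.07).

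Rescaling changed the size of most of these differences and the sign of some. MORF4L1 had a log2 fold change of -1.23 without rescaling, -1.39 after median-of-ratios scaling, -1.22 after quantile normalization and -1.35 after correction for length and GC content. The corresponding values were -0.17, -0.32, -0.11 and -0.27 for MORF4L2, and -0.34, -0.49, -0.47 and -0.47 for MRGBP. KAT5 went from 0.05 to -0.11, -0.03 and -0.03, so no direction can be given for it. EPC1 kept a positive value, at 0.44, 0.29, 0.29 and 0.25, and EPC2 likewise at 0.40, 0.26, 0.24 and 0.21. EP400 went from 0.37 to 0.22, 0.24 and 0.11. Of the 10 genes 3 had a negative value without rescaling, 4 after either of the scalings and 5 after the correction for length and GC content, which turned MEAF6 below 0.

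**Figure D5:**
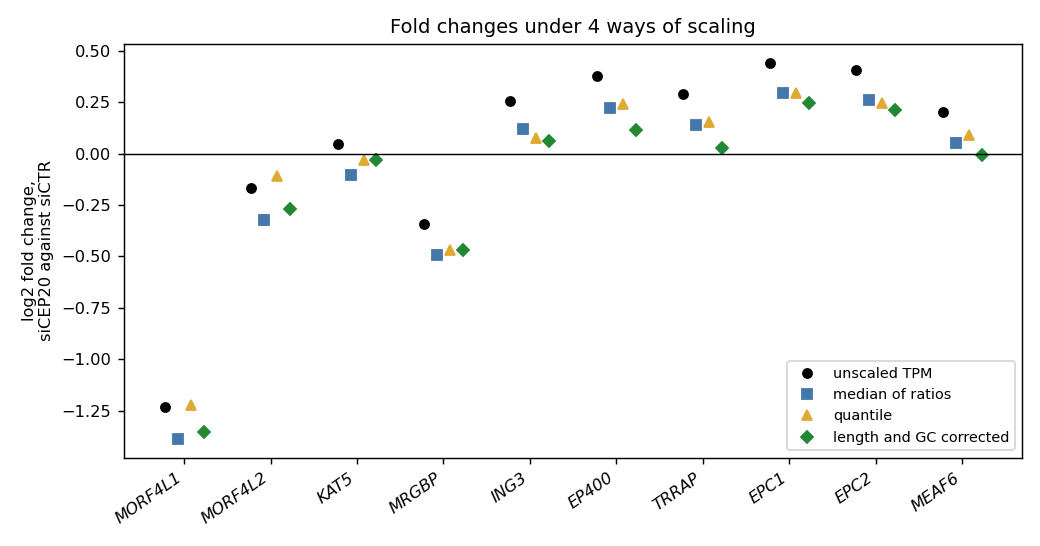
Log2 fold change, siCEP20 against siCTR (vertical axis), of the 10 genes with unscaled TPM (black circles), median-of-ratios scaling (blue squares), quantile normalization (yellow triangles) and correction for transcript length and GC content (green diamonds). MORF4L1 lies between -1.39 and -1.22 in all 4, MORF4L2 and MRGBP lie below 0 in all 4, and KAT5 and MEAF6 change sign.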

How the data were processed

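RNA-seq was available for 3 siCTR and 3 siCEP20 samples. The authors trimmed reads with fastp 0.20.1, aligned them to hg38 with HISAT2 2.1.0 and quantified genes with StringTie 2.0 (versions also stand in the submitters' processing notes), and deposited TPM per Ensembl gene in 1 table. TPM sums to 1000000 in each library, so depth is unknown and precision rests on the replicates. The annotation release used is not given in the sources used here; rows were named with GENCODE release 44 (60370 of 60624 matched).

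For genes averaging 1 TPM or more, log2(TPM + 1) was compared by limma (version 3.58.1, R 4.3.3), with a trended eBayes, no rescaling and Benjamini-Hochberg adjustment over all tested genes. Fold changes on this scale understate those of low genes. Read counts were not analysed here, so the count test of the study's methods was not used. Windows of 150 bases of canonical transcripts were looked up, as exact matches only, in the transcripts of all other genes. Copies were aligned with edlib 1.3.9.post1 in Python 3.11.15. The limma step was tested on simulated data.

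The 10 genes, the lists and the rule for the genes named were chosen with earlier results of these data known. The rule named CEP20, the 10 genes, all other NuA4 subunits, in each list the 3 genes with the smallest adjusted p and every called gene where at most 6 were called, pseudogene and overlapping rows, and the 5 genes nearest to MORF4L1. Lists are described by counts and medians, with no set test. Alternatives were another pseudocount, other filters and thresholds, median-of-ratios and quantile scaling, a loess correction (span 0.5) for length and GC content, eBayes without a trend, a replicate block, protein-coding genes only, added pseudogene rows, and each library left out.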

Additional observations from a re-analysis of the deposited data

How the results depend on the processing

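TPM without counts leaves depth unknown, and 3 libraries a group limit precision. Without rescaling 1659 genes were called higher and 682 lower. Median-of-ratios scaling gave 875 and 1121, quantile normalization 923 higher, the correction for length and GC content 894 higher, no fold threshold 4457 and 1944, and a fold of at least 2 gave 261 and 147; leaving out 1 library gave 1381 to 1905 higher and 613 to 706 lower. The count among the 10 genes at the limma adjusted p was 5 higher and 2 lower without the fold threshold, against 0 and 1 under every other setting run. Over all tested genes 30.2% were higher and 13.2% lower without that threshold, and 11.2% and 4.61% with it. The 10 genes were chosen with this contrast known, so their counts are no test and nothing is read from them. MORF4L1 had a log2 fold change of -1.39 after median-of-ratios scaling, -1.35 once corrected for length and GC content, -1.10 with MORF4L1P1 added, and -1.27 to -1.21 when 1 library was left out. The quotient of the MORF4L1 to MORF4L2 ratios, 0.477, was 0.522 with pseudogene rows added. Of the other NuA4 subunits 3 were higher and 1 lower without the fold threshold, and 1 (ACTB) was called higher after quantile normalization (0.74), without siCTR replicate 2 (0.60) and without siCTR replicate 3 (0.59), so that leaving out 1 library gave 0 to 1 higher and 0 lower. ACTB was lower and not called after median-of-ratios scaling (0.38), after the length and GC correction (0.48) and without siCTR replicate 1 (0.43). RUVBL1 passed the adjusted p after both scalings and the length and GC correction, and BRD8 with no filter on TPM. Of the genes in the other lists 9 were called higher and 3 lower. These were 4 higher after each scaling, 2 after the length and GC correction, 27 and 11 without the fold threshold, 0 and 1 at a fold of at least 2, and 8 to 12 and 3 with 1 library left out. Where no reason is given, the cause was not tested. The deviations of samples of the same replicate number had correlations of 0.157, -0.0614 and -0.0623. Between samples of unlike number the correlations ran from -0.121 to 0.170. With 3 libraries a group this cannot exclude pairing by number, and the labels do not state any. With the replicate number as a block, 1654 genes were called higher and 694 lower, MORF4L1 had a log2 fold change of -1.23, and no call changed among CEP20, the other NuA4 subunits and the leading genes of the lists that were recomputed.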

Other observations

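Other acetyltransferase complexes were described by counts in the same limma comparison. Of 23 genes of the other MYST acetyltransferases and their partners, enzymes of the family of KAT5, 3 were called higher and 0 lower, and at the adjusted p alone 9 rose, 4 fell and 10 did not pass (median log2 fold change 0.20, beside 0.13 for all tested genes). At an unadjusted p under 0.05 limma gave 11 higher and 4 lower. The share of all tested genes at that threshold was not computed, so nothing is read from these counts. KAT6A, which acetylates histone H3, rose from 9.01, 9.32 and 10.5 TPM in siCTR to 17.5, 19.6 and 18.6 TPM in siCEP20, a log2 fold change of 0.89 (standard error 0.0905, limma adjusted p = 0.000227). Its scaffold BRPF1 rose from 12.2 ± 0.289 to 20.8 ± 0.775 TPM and JADE1, a scaffold of KAT7, from 15.8 ± 0.741 to 26.8 ± 0.718 TPM (SD, n = 3, limma adjusted p = 0.000245 and 0.000209). KAT6A was called under each rescaling, at 0.74 after median-of-ratios scaling, 0.73 after quantile normalization and 0.63 after the length and GC correction. BRPF1 was called under none of them (0.57, 0.57 and 0.52) and JADE1 after quantile normalization only (0.59, against 0.58 and 0.50), while ING5, named after its values were seen, was called lower under all 3. Over all tested genes 11.2% were called higher and 4.61% lower without rescaling, and at the adjusted p alone 30.2% rose and 13.2% fell.

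SAGA, the acetyltransferase complex that shares TRRAP with NuA4, had 0 of 20 listed genes called higher and 1 called lower, and at the adjusted p alone 6 rose, 3 fell and 11 did not pass (median log2 fold change 0.10). Over all tested genes 11.2% were called higher and 4.61% lower, and at the adjusted p alone 30.2% rose and 13.2% fell. At an unadjusted p under 0.05 limma gave 6 higher and 4 lower. The share of all tested genes at that threshold was not computed, so nothing is read from these counts. TAF6L, a core subunit, fell from 29.0, 28.6 and 30.3 TPM to 17.0, 17.9 and 17.7 TPM, with a log2 fold change of -0.71 (standard error 0.0689, limma adjusted p = 0.000189). ATXN7L3, of the deubiquitinase module, fell from 113 ± 4.16 to 92.8 ± 2.21 TPM (SD, n = 3, limma adjusted p = 0.00435). SUPT20H rose from 25.1 ± 2.56 to 34.4 ± 1.498 TPM (SD, n = 3, limma adjusted p = 0.00445), and 12.9% of its windows of 150 bases were shared with EXOSC8 on the opposite strand. ATXN7, named after its values were seen, was called higher without siCTR replicate 3, without siCEP20 replicate 1 (with SUPT3H) without siCEP20 replicate 3 and with a pseudocount of 0.1, and TAF6L was called lower under every setting run with the fold threshold of 0.67.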
